A study of Sus scrofa with 8 samples.

Results

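The genes described here are the secreted and membrane-bound metalloproteinases that cut extracellular matrix and cell-surface proteins, together with their tissue inhibitors. They were all rows of the deposited count table whose mapped symbol is MMP, ADAM, ADAMTS or TIMP followed by a number. The rule found 62 of 22516 genes: 20 matrix metalloproteinases (MMP), 20 ADAM genes, 19 ADAMTS genes and 3 tissue inhibitors of metalloproteinases (TIMP). TIMP2 was not analysed here.

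MMPs are zinc enzymes that are made as inactive precursors and cleave collagens, basement membrane proteins and proteoglycans, either free in the matrix or held at the cell surface. ADAMs are membrane proteins that release the outer parts of growth factors, cytokines and receptors, although several lack the zinc-binding site and act in adhesion. ADAMTS proteins are secreted relatives that bind matrix and trim procollagens, the large proteoglycans aggrecan and versican, or microfibril proteins. TIMPs block the active site, and TIMP3 stands out by binding to matrix and by inhibiting some ADAM and ADAMTS enzymes as well. In limbs these enzymes take part in clearing early matrix, in the fusion and migration of muscle cells, and in the growth of bone and connective tissue.

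RNA from pig limb muscle was sequenced in 8 libraries, with 2 libraries in each of 4 groups. Embryos carrying a knockout of MYF5, MYOD and MYF6, transcription factors that establish skeletal muscle, were sampled at embryonic day 41 (E41) and at day 62 (E62), and were set beside wild-type (WT) embryos of the same stages. The comparison asks which of these genes depend on the muscle lineage in the developing limb. The series title says knockdown while every sample says knockout, and the growth protocol names day 60 as its later harvest. How the knockout was made is not given in the sources used here. The library names carry a number of their own in each group, and a limb code shared by both WT E41 libraries that differs from the code in the other 3 groups. The names of both knockout E62 libraries also lack a closing code that all the others carry. A litter, preparation, sequencing or limb effect therefore cannot be told apart from the groups.

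MYF5 and MYF6 had 0 counts in all 4 knockout libraries, against 948 and 1217 counts of MYF5 and 530 and 672 counts of MYF6 in WT at E41. In WT at E62 they had 3213 and 2113 counts of MYF5 and 3436 and 3675 counts of MYF6. MYOD1 kept 28 and 20 counts in knockout at E41 and 77 and 88 counts at E62, against 1503 and 2161 counts in WT at E41 and 5715 and 5203 counts at E62. The label of muscle was checked against 8 muscle markers (ACTA1, MYH3, MYL1, TNNC2, CKM, MYOG, CDH15 and PAX7). Their summed level was 4.93 to 7.30 CPM (counts relative to the library total after TMM scaling) in knockout at E41, against 9921 to 10619 CPM in WT. At E62 it was 6.26 to 6.47 CPM in knockout, against 22674 to 28671 CPM in WT, so the knockout tissue was muscle by its dissection and not by its markers. Library totals were 42352383 to 60539245 counts in knockout, against 23402052 to 37676855 counts in WT. Knockout E41 replicate 2 held 5695 CPM of 8 cartilage markers, against 1043 CPM in replicate 1, and knockout E62 replicate 1 held 404 CPM of 4 epidermis markers, against 7.08 CPM in replicate 2. These knockout libraries stand apart, and the counts of members called in each comparison and at both stages are also given without them. The counts by role and by list are not. The WT E41 replicates differed as well, with 1773 and 582 CPM of the cartilage markers and 225 and 107 CPM of macrophage markers.

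Of the 62 members, 50 passed the filter on low counts and were tested in edgeR's quasi-likelihood fit of all genes, where a change is called at a Benjamini-Hochberg adjusted p under 0.05. Values are given as CPM in replicates 1 and 2 of each group, and changes as the log2 fold change ± standard error. Each test of a member or a named list gene was repeated under up to 15 alternatives, 8 of which leave out 1 library, and under a replicate block that is given in the closing section. A gene that an alternative did not test has fewer. Where an alternative other than the block lost a call, its adjusted p, or the range over several, stands in brackets. Calls gained in an alternative are named only in part. Over the member and list gene changes checked, with the block included, 267 outcomes lost a call and 71 gained one with the same sign. Transcript lengths were not used, so levels are compared between groups for 1 gene and not between genes. In bulk tissue, fewer cells of a type and less RNA per cell cannot be told apart. Estimated counts divide reads among similar sequences, so values of close relatives carry that uncertainty, and their similarity was not measured.

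At E41, 18 members were higher and 5 lower in knockout than in WT, which is 36% and 10% of the 50 tested. Over all 17020 genes tested, 18.5% were called higher and 20.8% lower, and the median log2 change was 0.67 for the members and 0.09 for all genes. At E62, 26 members were higher and 9 lower, or 52% and 18% of those tested, against 21.0% and 26.2% of all genes. In either direction 70% of the members were called at E62, against 47.2% of all genes, and the medians were 1.03 and 0.06. Pooled over the families, the members' calls thus leaned upward at both stages while the calls over all genes did not. The families differed. At E41, 57.9% of tested ADAMTS genes were higher and 15.8% lower, against 21.4% and 0% of MMPs and 14.3% each way of ADAMs. At E62 these shares were 63.2% and 31.6% for ADAMTS genes, 57.1% and 7.14% for MMPs, and 28.6% and 14.3% for ADAMs. In either direction, 21.4% of MMPs and 28.6% of ADAMs were called at E41, against 39.2% of all genes. At E62, 42.9% of ADAMs were called. Members called at both stages were 13 higher and 4 lower, while ADAMTS7 was higher at E41 and lower at E62. Over all genes, 7.56% were higher and 12.6% lower at both stages, in comparisons whose groups share no library. Those shares of all genes were counted in the main fit alone, not under the alternatives that follow. The count higher at both stages was 5 without knockout E41 replicate 2, 6 without WT E41 replicate 2, 7 without knockout E41 replicate 1, 15 without knockout E62 replicate 1 and 24 under library size alone, and the count lower at both stages was 3 without either of the libraries that stand apart and 2 without WT E41 replicate 1.

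The E41 count rested on single libraries more than the E62 count did. It was 11 members (7 higher and 4 lower) without knockout E41 replicate 2, 12 without WT E41 replicate 2 and 15 without knockout E41 replicate 1, when 23.2%, 28.4% and 22.5% of all genes were called in either direction in place of 39.2%. Without knockout E62 replicate 1 the E41 count was 24. Without knockout E62 replicate 1 the E62 count was 28 members, 21 higher and 7 lower, and without knockout E41 replicate 2 it was 30. When libraries were scaled by their size alone, the median of all genes moved up by 0.29 at E41 and by 0.30 at E62, and 73.6% and 69.4% of all calls were higher, in place of 47.1% and 44.5%. The members' calls were then 30 higher and 4 lower at E41, and 31 higher and 6 lower at E62, and no called member changed direction.

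**Figure D1:**
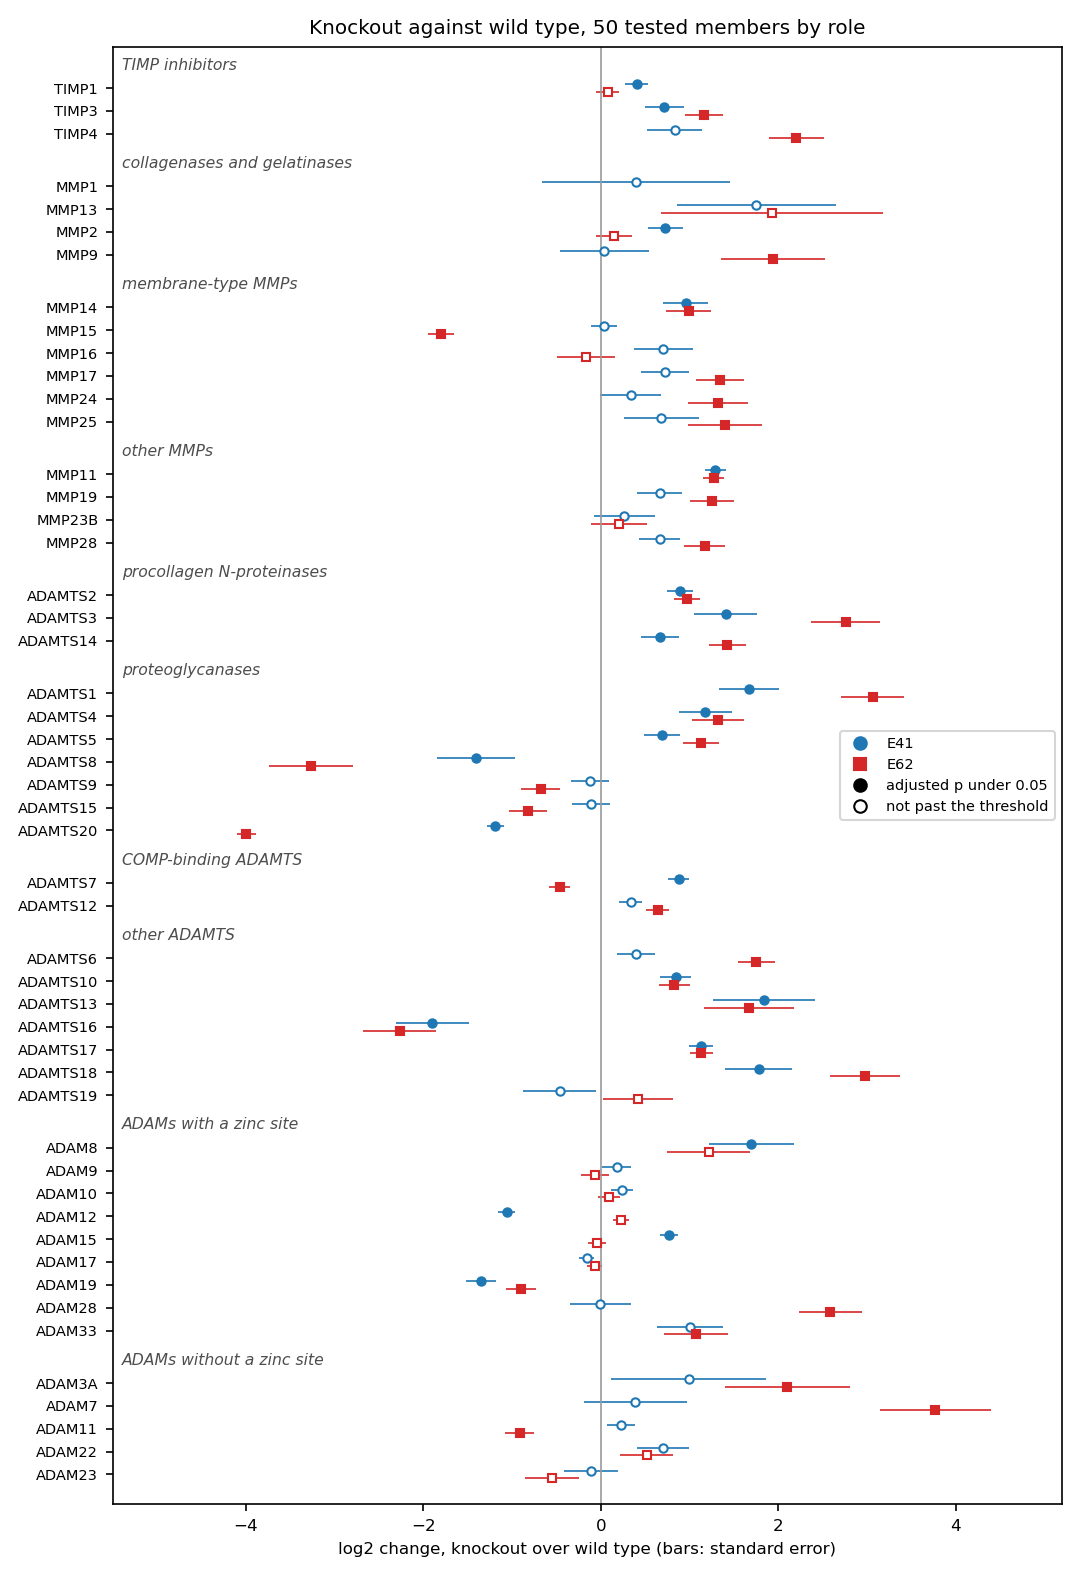
Log2 change of knockout over wild type (x axis) for the 50 tested members, in groups by role (y axis), at E41 (blue circles) and E62 (red squares), with filled marks at an adjusted p under 0.05 and bars for the standard error. Most filled marks lie right of 0, and the fallen members are ADAMTS8, ADAMTS16, ADAMTS20 and ADAM19 at both stages; MMP1 at E62 is left out because both wild-type libraries had 0 counts.

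The 3 inhibitors were each called higher in knockout at 1 stage or more. At each stage 2 of the 3 were called higher, against 18.5% of all genes at E41 and 21.0% at E62. TIMP3 (ENSSSCG00000031866), the inhibitor that binds matrix, had 702 and 712 CPM in knockout libraries, against 455 and 405 CPM in WT at E41. At E62 TIMP3 had 499.8 and 762 CPM in knockout libraries, against 239.9 and 323 CPM in WT. The knockout libraries lay above the WT libraries at both stages, with log2 changes of 0.72 ± 0.22, adjusted p = 0.0342 at E41 and 1.16 ± 0.22, adjusted p = 0.00396 at E62. The E41 call of TIMP3 was lost without knockout E41 replicate 1 (0.11), knockout E41 replicate 2 (0.117), WT E41 replicate 1 (0.0832) and WT E41 replicate 2 (0.15), so it rested on every library of that stage. TIMP4, a secreted inhibitor known for its high level in heart, had 51.4 and 94.8 CPM in knockout libraries, against 15.8 and 15.9 CPM in WT at E62. Its knockout libraries differed from each other but both exceeded WT by far (2.20 ± 0.31, adjusted p = 0.00152). At E41 TIMP4 had 18.6 and 18.2 CPM in knockout libraries, against 12.4 and 8.32 CPM in WT, without overlap and short of the threshold (0.83 ± 0.31, adjusted p = 0.0739). TIMP1, a secreted inhibitor of most MMPs, had 145 and 144 CPM in knockout libraries, against 109.8 and 108 CPM in WT at E41, with tight replicates and a small change (0.41 ± 0.13, adjusted p = 0.036). This call was lost without knockout E41 replicate 1 (0.13), knockout E41 replicate 2 (0.112), WT E41 replicate 1 (0.0908) and WT E41 replicate 2 (0.117). At E62 TIMP1 had 85.50 and 101 CPM in knockout libraries, against 98.2 and 78.4 CPM in WT, and the groups overlapped (0.08 ± 0.13, adjusted p = 0.632). The difference between the stages did not pass the threshold for TIMP1 (-0.33 ± 0.18, adjusted p = 0.209), TIMP3 (0.45 ± 0.31, adjusted p = 0.317) or TIMP4 (1.37 ± 0.43, adjusted p = 0.0581).

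Among the collagenases and gelatinases, MMP2 is the gelatinase of connective tissue cells and cuts denatured and basement membrane collagen. It had 1448 and 1608 CPM in knockout libraries, against 1096 and 749 CPM in WT at E41, with knockout above WT (0.73 ± 0.20, adjusted p = 0.0228). Its E41 call was lost without knockout E41 replicate 1 (0.0636), knockout E41 replicate 2 (0.112) and WT E41 replicate 2 (0.0989). At E62 MMP2 had 1205 and 1456 CPM in knockout libraries, against 1097 and 1301 CPM in WT, where the ranges overlapped (0.15 ± 0.20, adjusted p = 0.556). MMP9, the gelatinase of macrophages, neutrophils and osteoclasts, had 0.885 and 0.501 CPM in knockout libraries, against 0.120 and 0.236 CPM in WT at E62, low in every library and higher in knockout (1.94 ± 0.59, adjusted p = 0.0277). That call was lost in 6 of 15 alternatives (0.0508 to 0.152), 5 of which leave out a library. At E41 MMP9 had 2.07 and 2.13 CPM in knockout libraries, against 2.75 and 1.33 CPM in WT, with overlap (0.04 ± 0.497, adjusted p = 0.957).

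MMP13, a collagenase of hypertrophic cartilage and bone, passed no genotype test (1.75 ± 0.89, adjusted p = 0.163 at E41 and 1.93 ± 1.25, adjusted p = 0.238 at E62). It had 1.16 and 8.01 CPM in knockout libraries, against 1.21 and 1.504 CPM in WT at E41, so 1 knockout library was high and the other lay below both WT libraries. The high library was knockout E41 replicate 2, the one with the high cartilage markers. COL10A1, the collagen of hypertrophic cartilage, was at 0.0215 and 5.67 CPM in the knockout libraries and 0.773 and 1.37 CPM in WT. The list of hypertrophic cartilage and bone markers that holds COL10A1 did not follow as a whole. It summed to 87.5 and 118 CPM in knockout, against 33.7 and 169 CPM in WT at E41. Without knockout E41 replicate 2, the log2 change of MMP13 was -0.22. The part of cartilage in the MMP13 level was not tested. MMP1, another collagenase, was near its detection limit, with at most 13 counts in a library, and 0 in both WT E62 libraries.

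The 6 membrane-type MMPs tested split in direction. MMP14 (MT1-MMP), which cuts fibrillar collagen at the cell surface and activates MMP2, had 821 and 899 CPM in knockout libraries, against 554 and 333 CPM in WT at E41. At E62 MMP14 had 993 and 1232 CPM in knockout libraries, against 483 and 634 CPM in WT. Knockout exceeded WT at both stages, by 0.96 ± 0.25, adjusted p = 0.0225 and 0.99 ± 0.25, adjusted p = 0.0158. Its E41 call was lost without knockout E41 replicate 1 (0.0667), knockout E41 replicate 2 (0.0951) and WT E41 replicate 2 (0.0707), and its E62 call without knockout E62 replicate 2 (0.0738) and WT E62 replicate 1 (0.111). MMP15 (MT2-MMP), a close relative of MMP14, took the opposite course at E62, with 22.9 and 30.7 CPM in knockout libraries, against 88.8 and 97.3 CPM in WT. Its groups overlapped at E41, with 63.3 and 59.3 CPM in knockout libraries, against 63.2 and 56.2 CPM in WT (0.04 ± 0.14, adjusted p = 0.863), and knockout was 3.47-fold lower at E62 (-1.80 ± 0.15, adjusted p = 6.16e-05). MMP16 (MT3-MMP) passed at neither stage (0.71 ± 0.33, adjusted p = 0.139 at E41 and -0.17 ± 0.33, adjusted p = 0.7 at E62). At E41 MMP16 had 67.3 and 85.6 CPM in knockout, against 59.8 and 33.98 CPM in WT. At E62 it had 28.2 and 28.45 CPM in knockout, against 24.1 and 39.4 CPM in WT, with overlap.

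MMP24 is a transmembrane enzyme known from neurons in mouse, and MMP17 and MMP25 are tied to the membrane by a lipid anchor, MMP25 being known from human leukocytes. All were called higher in knockout at E62 and not at E41. MMP17 had 6.83 and 5.02 CPM in knockout libraries, against 2.77 and 1.88 CPM in WT at E62 (1.35 ± 0.27, adjusted p = 0.00475), without overlap. MMP24 had 10.03 and 5.12 CPM in knockout libraries, against 2.83 and 3.24 CPM in WT (1.32 ± 0.34, adjusted p = 0.0137); its call was lost without knockout E62 replicate 1 (0.0799), WT E62 replicate 1 (0.082) and WT E62 replicate 2 (0.0503), and its log2 change was 0.75 without the first of these. MMP25 stayed near 1 CPM or less in every library (1.41 ± 0.42, adjusted p = 0.0255), and its call was lost in 6 of 14 alternatives (0.0583 to 0.115), each leaving out a library.

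Of the other MMPs, MMP11 (stromelysin-3), an enzyme of stromal cells that leaves the cell already active, was called at both stages. It had 48.46 and 50.01 CPM in knockout libraries, against 21.4 and 18.9 CPM in WT at E41. At E62 MMP11 had 78.4 and 66.4 CPM in knockout libraries, against 28.45 and 31.51 CPM in WT. Knockout was higher by 1.29 ± 0.12, adjusted p = 0.000196 at E41 and by 1.27 ± 0.12, adjusted p = 0.000102 at E62, and the difference between these effects was -0.02 ± 0.16. MMP19 and MMP28 (epilysin), enzymes found in many adult tissues, were called higher in knockout at E62 and not at E41. MMP19 changed by 0.67 ± 0.25, adjusted p = 0.0696 at E41 and 1.25 ± 0.25, adjusted p = 0.00446 at E62, and MMP28 by 0.66 ± 0.23, adjusted p = 0.0531 and 1.17 ± 0.23, adjusted p = 0.00432. At E62 MMP28 had 14.53 and 21.98 CPM in knockout libraries, against 8.69 and 7.48 CPM in WT, without overlap. At E41 MMP28 had 17.1 and 14.4 CPM in knockout libraries, against 11.2 and 8.67 CPM in WT. MMP19 had 17.54 and 21.9 CPM in knockout libraries, against 6.26 and 10.3 CPM in WT at E62. Its libraries did not overlap there, nor at E41, with 11.3 and 9.29 CPM in knockout libraries, against 6.76 and 6.19 CPM in WT. MMP23B passed no genotype test, with 0.26 ± 0.34, adjusted p = 0.581 at E41 and 0.21 ± 0.32, adjusted p = 0.62 at E62.

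**Figure D2:**
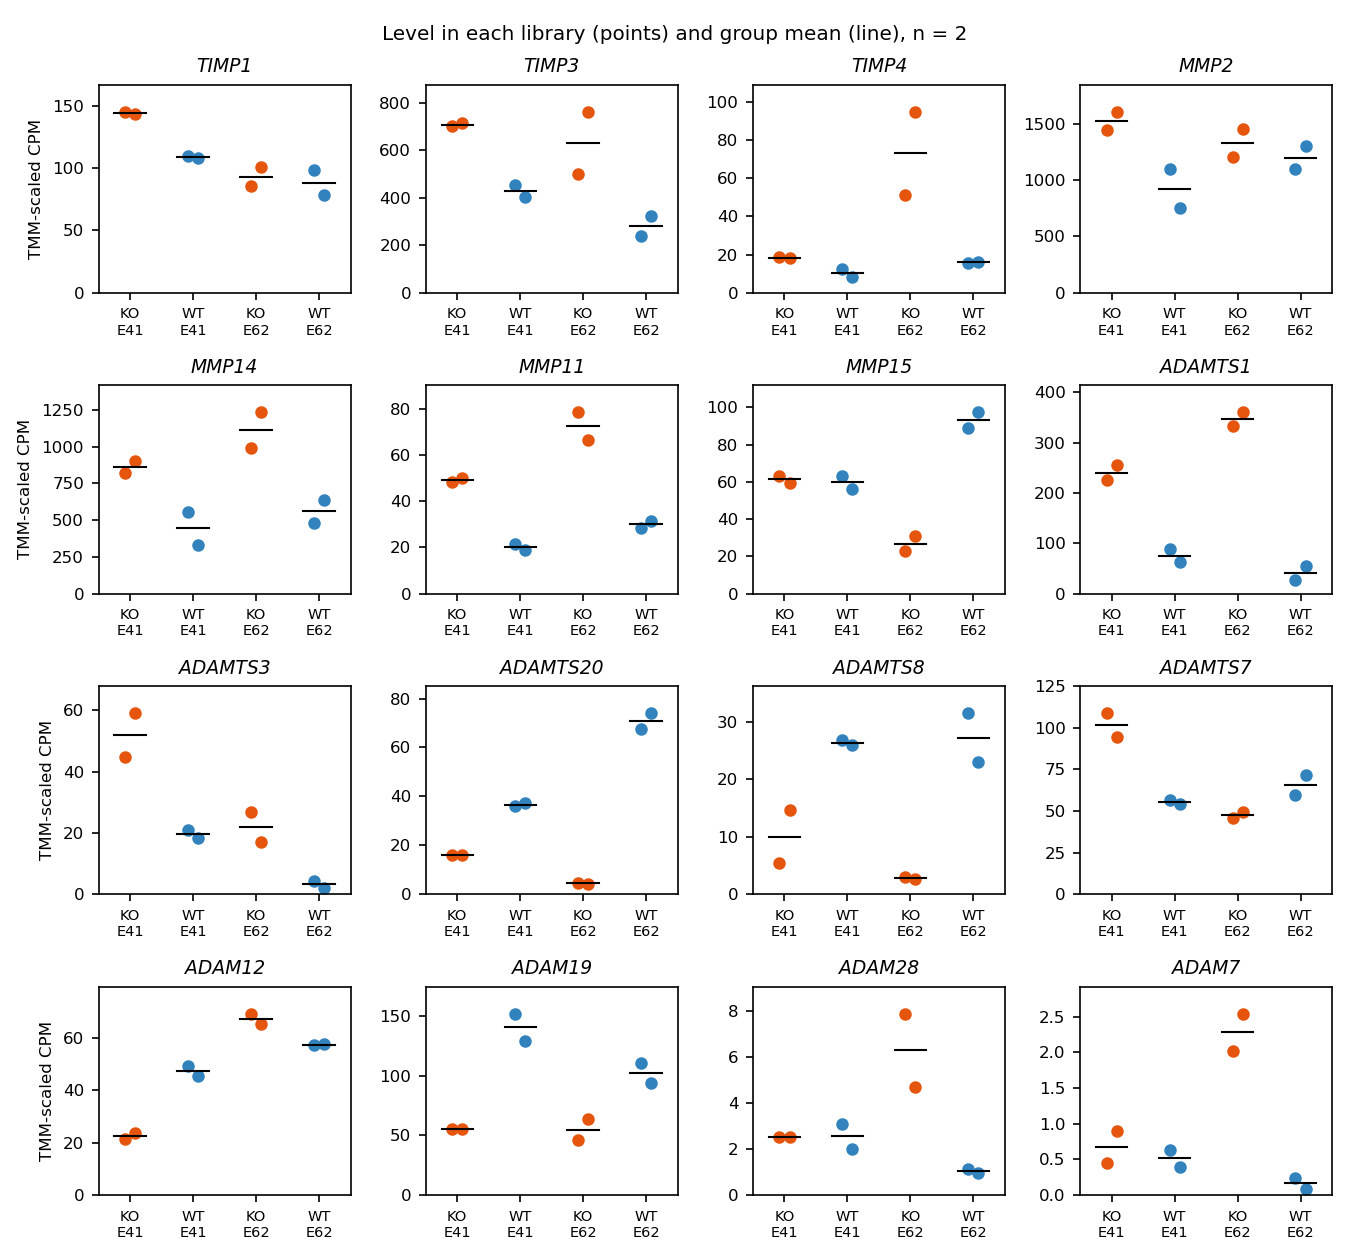
TMM-scaled CPM (y axis, from 0) of 16 members in each library (points; knockout orange, wild type blue) with the group mean (line, n = 2), by genotype and stage (x axis). ADAMTS1 and MMP11 lie higher in knockout at both stages, ADAMTS20 and ADAM19 lower at both, MMP15 lower in knockout at E62 and ADAM12 lower in knockout at E41.

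The 3 ADAMTS enzymes that remove the amino-terminal propeptide of fibrillar procollagens, ADAMTS2, ADAMTS3 and ADAMTS14, were all called higher in knockout at both stages, against 7.56% of all genes. ADAMTS2 had 209 and 199 CPM in knockout libraries, against 126 and 93.7 CPM in WT at E41 (0.89 ± 0.15, adjusted p = 0.00292). At E62 ADAMTS2 had 267 and 320.4 CPM in knockout libraries, against 152 and 147 CPM in WT (0.97 ± 0.15, adjusted p = 0.00139). ADAMTS3, which also processes the lymphatic growth factor VEGFC, had 44.9 and 59.1 CPM in knockout libraries, against 20.8 and 18.4 CPM in WT at E41 (1.41 ± 0.36, adjusted p = 0.023). At E62 ADAMTS3 had 26.8 and 17.00 CPM in knockout libraries, against 4.39 and 2.06 CPM in WT (2.76 ± 0.39, adjusted p = 0.00184). The knockout level of ADAMTS3 at E62 overlapped the WT level at E41, and both genotypes were lower at E62 than at E41. ADAMTS14 had 35.6 and 56.6 CPM in knockout libraries, against 16.7 and 17.6 CPM in WT at E62 (1.43 ± 0.21, adjusted p = 0.00117). At E41 ADAMTS14 had 18.02 and 17.48 CPM in knockout libraries, against 12.1 and 10.3 CPM in WT (0.67 ± 0.21, adjusted p = 0.0399). The E41 call of ADAMTS3 was lost without knockout E41 replicate 1 (0.0522), knockout E41 replicate 2 (0.107), WT E41 replicate 1 (0.0856) and WT E41 replicate 2 (0.115). For ADAMTS14 it was lost in 7 of 15 alternatives (0.058 to 0.174), 6 of which leave out a library.

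The 7 ADAMTS enzymes known to cut aggrecan or versican divided into members that rose and members that fell. ADAMTS1 (ENSSSCG00000012026), a versican-cleaving enzyme, had 225 and 256 CPM in knockout libraries, against 88.8 and 61.9 CPM in WT at E41. At E62 ADAMTS1 had 333 and 360.1 CPM in knockout libraries, against 27.6 and 55.3 CPM in WT. Knockout stood 3.19-fold higher at E41 (1.68 ± 0.34, adjusted p = 0.0106) and 8.37-fold higher at E62 (3.07 ± 0.36, adjusted p = 0.000915), with a difference between the stages that did not pass the threshold (1.39 ± 0.47, adjusted p = 0.0757). That difference was called in DESeq2 (adjusted p = 0.00172) and limma-voom (0.0454), while 12 of 15 alternatives, the block included, did not call it. The E41 call was lost without knockout E41 replicate 2 (0.0553) and WT E41 replicate 2 (0.0576). ADAMTS5, the main aggrecanase of mouse cartilage and its neighbour on chromosome 13, had 37.4 and 42.9 CPM in knockout libraries, against 28.2 and 21.7 CPM in WT at E41 (0.69 ± 0.20, adjusted p = 0.0298). At E62 ADAMTS5 had 44.51 and 51.3 CPM in knockout libraries, against 17.9 and 25.8 CPM in WT (1.13 ± 0.20, adjusted p = 0.00301). Its E41 call was lost without knockout E41 replicate 1 (0.065), knockout E41 replicate 2 (0.137) and WT E41 replicate 2 (0.147). ADAMTS4, an aggrecanase too, had 40.00 and 38.2 CPM in knockout libraries, against 22.3 and 12.3 CPM in WT at E41 (1.18 ± 0.30, adjusted p = 0.0208). At E62 ADAMTS4 had 50.2 and 62.2 CPM in knockout libraries, against 18.6 and 26.4 CPM in WT (1.32 ± 0.29, adjusted p = 0.0103). Its E41 call was lost without knockout E41 replicate 1 (0.0876) and knockout E41 replicate 2 (0.0745), and its E62 call without WT E62 replicate 1 (0.0744).

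ADAMTS20, which cuts versican and is needed for melanocyte spread in mouse skin, had 16.1 and 16.05 CPM in knockout libraries, against 36.04 and 37.2 CPM in WT at E41. At E62 ADAMTS20 had 4.53 and 4.34 CPM in knockout libraries, against 67.4 and 74.04 CPM in WT. The replicates lay close together, and knockout was 2.28-fold lower at E41 (-1.19 ± 0.09, adjusted p = 9.5e-05) and 15.9-fold lower at E62 (-3.99 ± 0.10, adjusted p = 1.16e-07). ADAMTS8 had 2.95 and 2.70 CPM in knockout libraries, against 31.52 and 23.00 CPM in WT at E62, with knockout 9.63-fold lower (-3.27 ± 0.47, adjusted p = 0.0022). At E41 ADAMTS8 had 5.36 and 14.6 CPM in knockout libraries, against 26.8 and 26.01 CPM in WT (-1.40 ± 0.44, adjusted p = 0.047), and the knockout replicates differed more from each other than those of WT. This E41 call was lost in 9 of 15 alternatives (0.0641 to 0.146), 6 of which leave out a library, and the log2 change was -2.30 without knockout E41 replicate 2 and -0.86 without replicate 1. ADAMTS15, the neighbour of ADAMTS8 on chromosome 9 and a versican-cleaving enzyme of developing mouse muscle, had 46.05 and 74.6 CPM in knockout libraries, against 109.8 and 103 CPM in WT at E62 (-0.82 ± 0.22, adjusted p = 0.0181), with a call that was lost when scaled by library size alone (0.0862), without WT E62 replicate 1 (0.0881) and without WT E62 replicate 2 (0.0606). At E41 its groups overlapped, at 85.9 and 85.6 CPM in knockout libraries, against 102 and 82.9 CPM in WT (-0.10 ± 0.21, adjusted p = 0.733). ADAMTS9, the closest relative of ADAMTS20, was likewise called lower at E62 and not at E41 (-0.12 ± 0.22, adjusted p = 0.699 at E41 and -0.68 ± 0.22, adjusted p = 0.0397 at E62). At E62 ADAMTS9 had 86.1 and 105 CPM in knockout libraries, against 148 and 158 CPM in WT, without overlap. This call was lost in 7 of 15 alternatives (0.0535 to 0.178), 4 of which leave out a library.

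ADAMTS7 and ADAMTS12, which bind the cartilage protein COMP, differed from each other. ADAMTS7 had 109 and 94.8 CPM in knockout libraries, against 56.52 and 54.02 CPM in WT at E41 (0.88 ± 0.12, adjusted p = 0.00106). At E62 it had 46.03 and 49.3 CPM in knockout libraries, against 59.52 and 71.8 CPM in WT (-0.46 ± 0.12, adjusted p = 0.0134), so the groups were apart at both stages and in opposite order. The E62 call was lost when scaled by library size alone (0.282), without knockout E62 replicate 1 (0.0587) and without WT E62 replicate 2 (0.0733), and the log2 change was -0.16 under library size alone. ADAMTS12 had 302 and 366 CPM in knockout libraries, against 197 and 231 CPM in WT at E62 (0.64 ± 0.13, adjusted p = 0.00483), and a smaller difference at E41 that did not pass (0.34 ± 0.13, adjusted p = 0.0719). The E41 difference was called in DESeq2 (adjusted p = 0.045) and under library size alone (0.00584), among others. In 10 of 16 alternatives, the block included, it was not called.

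Of the 7 remaining ADAMTS genes, 4 were called higher at both stages, 1 lower at both, 1 higher at E62 only and 1 at neither. Over all genes, 7.56% were called higher and 12.6% lower at both stages. ADAMTS10 and ADAMTS17, which are linked to fibrillin microfibrils and to human short stature syndromes, kept nearly equal log2 changes at the 2 stages. For ADAMTS10 these were 0.85 ± 0.18, adjusted p = 0.00723 at E41 and 0.83 ± 0.17, adjusted p = 0.00563 at E62, and for ADAMTS17 they were 1.13 ± 0.13, adjusted p = 0.00059 and 1.14 ± 0.13, adjusted p = 0.000361. ADAMTS17 had 143 and 151 CPM in knockout libraries, against 70.1 and 63.8 CPM in WT at E41. At E62 ADAMTS17 had 103 and 129 CPM in knockout libraries, against 48.51 and 56.9 CPM in WT, and the groups overlapped at neither stage. ADAMTS10 had 25.4 and 30.9 CPM in knockout libraries, against 15.9 and 15.4 CPM in WT at E41. At E62 ADAMTS10 had 32.6 and 39.03 CPM in knockout libraries, against 17.1 and 23.2 CPM in WT, again without overlap. ADAMTS18 had 8.35 and 9.93 CPM in knockout libraries, against 0.662 and 1.65 CPM in WT at E62 (2.98 ± 0.39, adjusted p = 0.000639). At E41 ADAMTS18 had 7.45 and 6.21 CPM in knockout libraries, against 1.93 and 2.03 CPM in WT (1.78 ± 0.38, adjusted p = 0.00794). ADAMTS6, also tied to microfibrils, had 31.6 and 32.7 CPM in knockout libraries, against 9.17 and 9.89 CPM in WT at E62 (1.75 ± 0.21, adjusted p = 0.00043), whereas at E41 it had 7.13 and 11.53 CPM in knockout, against 7.15 and 7.03 CPM in WT, with overlap (0.40 ± 0.21, adjusted p = 0.181). ADAMTS16, related to ADAMTS18, went the other way, with 3.51 and 6.66 CPM in knockout libraries, against 30.2 and 18.7 CPM in WT at E62 (-2.27 ± 0.41, adjusted p = 0.00456). At E41 ADAMTS16 had 6.03 and 3.39 CPM in knockout libraries, against 18.4 and 16.7 CPM in WT (-1.90 ± 0.42, adjusted p = 0.0122). Its E41 call was lost without knockout E41 replicate 2 (0.0633) and WT E41 replicate 1 (0.0616). ADAMTS13, the plasma enzyme that trims von Willebrand factor, was under 1 CPM throughout; its E41 call (1.84 ± 0.57, adjusted p = 0.0367) was lost in 11 of 14 alternatives (0.0501 to 0.191), 8 of which leave out a library, and its E62 call (1.67 ± 0.51, adjusted p = 0.0285) in 7 of 14 alternatives (0.0599 to 0.138), 6 of which leave out a library. ADAMTS19 passed at neither stage, with -0.46 ± 0.41, adjusted p = 0.418 at E41 and 0.42 ± 0.39, adjusted p = 0.41 at E62. Its E62 libraries overlapped, at 33.52 and 43.4 CPM in knockout, against 16.3 and 40.9 CPM in WT. At E41 ADAMTS19 had 9.24 and 9.92 CPM in knockout, against 12.9 and 13.4 CPM in WT, short of the threshold and without overlap.

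Among the 9 tested ADAMs with a zinc-binding site, the general sheddases ADAM10 and ADAM17 passed at neither stage. ADAM10, which cuts Notch and cadherins, had 106 and 102 CPM in knockout libraries, against 96.3 and 80.3 CPM in WT at E41 (0.24 ± 0.13, adjusted p = 0.166). At E62 ADAM10 had 86.6 and 99.2 CPM in knockout libraries, against 80.2 and 93.6 CPM in WT (0.10 ± 0.12, adjusted p = 0.55). ADAM17, which releases TNF and ligands of the EGF receptor, had 32.9 and 33.8 CPM in knockout libraries, against 38.2 and 36.3 CPM in WT at E41 (-0.16 ± 0.09, adjusted p = 0.187). At E62 ADAM17 had 27.4 and 29.03 CPM in knockout libraries, against 29.47 and 29.7 CPM in WT (-0.07 ± 0.09, adjusted p = 0.532). ADAM9, a widely made sheddase, passed at neither stage (0.18 ± 0.16, adjusted p = 0.414 and -0.07 ± 0.16, adjusted p = 0.755). At E41 ADAM9 had 32.7 and 34.3 CPM in knockout, against 34.9 and 24.3 CPM in WT. At E62 it had 33.3 and 29.8 CPM in knockout, against 31.7 and 34.4 CPM in WT. A change short of the threshold does not show that the genotypes were equal.

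ADAM12 (meltrin alpha) and ADAM19 (meltrin beta) were first known from mouse muscle cells, where ADAM12 is linked to fusion, and ADAM19 sheds neuregulins. ADAM12 had 21.6 and 23.8 CPM in knockout libraries, against 49.2 and 45.4 CPM in WT at E41, 2.08-fold lower in knockout (-1.06 ± 0.09, adjusted p = 0.000169). At E62 ADAM12 had 69.3 and 65.3 CPM in knockout libraries, against 57.4 and 57.7 CPM in WT, now with knockout above WT and short of the threshold (0.23 ± 0.09, adjusted p = 0.0738). ADAM19 had 55.4 and 55.02 CPM in knockout libraries, against 152 and 129 CPM in WT at E41 (-1.35 ± 0.17, adjusted p = 0.00084). At E62 ADAM19 had 46.1 and 63.6 CPM in knockout libraries, against 111 and 93.4 CPM in WT (-0.90 ± 0.17, adjusted p = 0.0035). Knockout lay below WT at both stages for ADAM19, and its E62 change was -0.59 when scaled by library size alone.

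ADAM15, an adhesion-linked ADAM of endothelial and other cells, had 38.3 and 37.04 CPM in knockout libraries, against 21.4 and 22.8 CPM in WT at E41 (0.77 ± 0.10, adjusted p = 0.00102). At E62 ADAM15 had 39.3 and 44.9 CPM in knockout libraries, against 41.6 and 45.00 CPM in WT (-0.04 ± 0.10, adjusted p = 0.76), where the groups overlapped. ADAM33, known from human asthma genetics and made by mesenchymal cells, had 31.9 and 47.8 CPM in knockout libraries, against 12.7 and 25.1 CPM in WT at E62 (1.08 ± 0.36, adjusted p = 0.047). At E41 ADAM33 had 14.1 and 17.4 CPM in knockout libraries, against 9.03 and 6.68 CPM in WT (1.003 ± 0.37, adjusted p = 0.0763). Its call was lost in 8 of 15 alternatives (0.0608 to 0.181), 6 of which leave out a library, with log2 changes of 0.75 without knockout E62 replicate 2 and 0.66 without WT E62 replicate 1. ADAM8, an enzyme of myeloid cells and osteoclasts, had 1.74 and 1.13 CPM in knockout libraries, against 0.531 and 0.354 CPM in WT at E41 (1.70 ± 0.48, adjusted p = 0.0252). At E62 ADAM8 had 0.811 and 0.718 CPM in knockout libraries, against 0.361 and 0.294 CPM in WT (1.22 ± 0.47, adjusted p = 0.0659). Its E41 call was lost without knockout E41 replicate 1 (0.173), knockout E41 replicate 2 (0.055) and WT E41 replicate 2 (0.0908). ADAM28, known from lymphocytes and epithelia in human, had 7.86 and 4.71 CPM in knockout libraries, against 1.11 and 0.972 CPM in WT at E62, 6.02-fold higher in knockout (2.59 ± 0.36, adjusted p = 0.000829). At E41 ADAM28 had 2.54 and 2.52 CPM in knockout libraries, against 3.09 and 1.99 CPM in WT, with overlap (-0.004 ± 0.34, adjusted p = 0.994).

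Of the ADAMs without a zinc-binding site, ADAM7, known from the mouse epididymis, had 2.02 and 2.54 CPM in knockout libraries, against 0.241 and 0.0883 CPM in WT at E62 (3.77 ± 0.62, adjusted p = 0.0019). At E41 it had 0.452 and 0.890 CPM in knockout libraries, against 0.628 and 0.398 CPM in WT, with overlap (0.39 ± 0.58, adjusted p = 0.627). The E62 libraries behind this change held 137 and 152 counts in knockout, against 8 and 3 counts in WT. ADAM3A, a sperm protein in mouse, was at most 0.434 CPM in a library, and its E62 call (2.10 ± 0.70, adjusted p = 0.0403) was lost in 8 of 14 alternatives (0.065 to 0.206), 6 of which leave out a library. ADAM11, ADAM22 and ADAM23 are nerve-cell proteins, ADAM22 and ADAM23 being receptors of the secreted LGI proteins. ADAM11 had 4.43 and 5.01 CPM in knockout libraries, against 9.26 and 8.48 CPM in WT at E62 (-0.91 ± 0.16, adjusted p = 0.00275). At E41 ADAM11 had 16.3 and 13.3 CPM in knockout libraries, against 12.7 and 12.6 CPM in WT (0.23 ± 0.16, adjusted p = 0.291), so knockout lay below WT at E62 and, short of the threshold, above it at E41. ADAM22 changed by 0.70 ± 0.30, adjusted p = 0.108 at E41 and 0.52 ± 0.30, adjusted p = 0.196 at E62, and ADAM23 by -0.11 ± 0.31, adjusted p = 0.804 and -0.55 ± 0.30, adjusted p = 0.183, with none of these past the threshold.

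The genotype effect differed between the stages for 9 of the 50 tested members (18%), against 26.8% of all genes, with 11.2% positive and 15.5% negative. The count was also 9 without knockout E41 replicate 2, and 12 without knockout E62 replicate 1. The share of all genes called fell in both refits, and the members' share did not stay below it. In the fit of all libraries, the difference, knockout effect at E62 minus that at E41, was positive for 4 members and negative for 5. On the positive side stood ADAM7 (3.38 ± 0.85, adjusted p = 0.0228), ADAM28 (2.59 ± 0.49, adjusted p = 0.00814), ADAMTS6 (1.36 ± 0.30, adjusted p = 0.0141) and ADAM12 (1.28 ± 0.13, adjusted p = 0.00106). ADAM7, ADAM28 and ADAMTS6 were higher in knockout at E62 alone by the test, while ADAM12 was lower in knockout at E41 and not at E62. On the negative side stood ADAMTS20 (-2.81 ± 0.13, adjusted p = 0.000203), MMP15 (-1.83 ± 0.20, adjusted p = 0.00137), ADAMTS7 (-1.34 ± 0.17, adjusted p = 0.00183), ADAM11 (-1.14 ± 0.23, adjusted p = 0.00984) and ADAM15 (-0.81 ± 0.14, adjusted p = 0.00632). The difference for ADAM7 was lost without knockout E41 replicate 1 (0.0801), WT E41 replicate 1 (0.0701) and WT E62 replicate 2 (0.0671), that for ADAMTS6 without WT E41 replicate 1 (0.0524) and WT E62 replicate 1 (0.0515), and that for ADAM11 without knockout E41 replicate 1 (0.0515). For TIMP4 (1.37 ± 0.43, adjusted p = 0.0581), MMP9 (1.90 ± 0.77, adjusted p = 0.106) and MMP2 (-0.58 ± 0.28, adjusted p = 0.166), each called at 1 stage alone, the difference did not pass. A call at 1 stage alone is therefore not a difference between stages. For ADAMTS8, called lower at both stages, the difference did not pass either (-1.86 ± 0.62, adjusted p = 0.0739), although DESeq2 called it (0.00434).

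Between the stages, 14 members were higher and 10 lower at E62 than at E41 in knockout limbs, or 48% of those tested, against 30.1% of all genes (12.1% higher and 18.0% lower). In WT limbs 8 were higher and 7 lower, or 30%, against 39.8% of all genes (19.8% higher). The knockout count was 11 without either knockout E41 library, 18 without knockout E62 replicate 1 and 15 without replicate 2, and the WT count was 7 without WT E41 replicate 2, 11 without knockout E41 replicate 2 and 20 without knockout E62 replicate 1. The share of all genes called was also lower in each of the knockout refits, so those drops were not particular to the members. In WT it was lower without WT E41 replicate 2 and without knockout E41 replicate 2. It was nearly unchanged without knockout E62 replicate 1. The stage comparisons in knockout and in WT share no library. The members higher at E62 in both genotypes were ADAM12, ADAM33, ADAMTS2, MMP11 and MMP23B. MMP23B, an MMP found in reproductive and other tissues in human, rose in knockout with 23.7 and 42.47 CPM at E62, against 8.37 and 6.67 CPM at E41 (2.14 ± 0.34, adjusted p = 0.00563), and in WT with 23.1 and 34.3 CPM at E62, against 7.15 and 5.40 CPM at E41 (2.19 ± 0.35, adjusted p = 0.00363). MMP11 rose in knockout (0.56 ± 0.11, adjusted p = 0.0104) and in WT (0.58 ± 0.12, adjusted p = 0.00693), and its knockout call was lost without knockout E41 replicate 1 (0.0768) and knockout E41 replicate 2 (0.0583). ADAM12 rose in knockout (1.57 ± 0.09, adjusted p = 0.000256) and in WT (0.28 ± 0.09, adjusted p = 0.0412), where the call was lost in 7 of 15 alternatives (0.0504 to 0.108), 5 of which leave out a library. ADAM33 rose in knockout (1.34 ± 0.36, adjusted p = 0.0339) and in WT (1.27 ± 0.38, adjusted p = 0.0372). Its knockout call was lost in 5 of 15 alternatives (0.052 to 0.18), each leaving out a library, and its WT call in 6 of 15 alternatives (0.0621 to 0.16), 5 of which leave out a library. ADAMTS2 rose in knockout (0.53 ± 0.15, adjusted p = 0.0329) and in WT (0.45 ± 0.15, adjusted p = 0.0469). Its knockout call was lost without knockout E41 replicate 1 (0.12), knockout E41 replicate 2 (0.152) and knockout E62 replicate 2 (0.147), and its WT call in 7 of 15 alternatives (0.0505 to 0.147), 5 of which leave out a library.

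The members lower at E62 in both genotypes were ADAM11, ADAMTS3, MMP9 and MMP13. ADAM11 fell in knockout (-1.65 ± 0.16, adjusted p = 0.001) and in WT (-0.51 ± 0.16, adjusted p = 0.0388), where the call was lost in 10 of 15 alternatives (0.0533 to 0.219), 6 of which leave out a library. ADAMTS3 fell in knockout with 26.8 and 17.00 CPM at E62, against 44.9 and 59.1 CPM at E41 (-1.25 ± 0.35, adjusted p = 0.0402), and in WT with 4.39 and 2.06 CPM at E62, against 20.8 and 18.4 CPM at E41 (-2.60 ± 0.39, adjusted p = 0.00363). MMP9 fell in knockout with 0.885 and 0.501 CPM at E62, against 2.07 and 2.13 CPM at E41 (-1.59 ± 0.51, adjusted p = 0.0476). In WT it fell with 0.120 and 0.236 CPM at E62, against 2.75 and 1.33 CPM at E41 (-3.49 ± 0.60, adjusted p = 0.00348). The knockout calls of ADAMTS3 and MMP9 were lost in 6 of 15 alternatives (0.053 to 0.169), 5 of which leave out a library, and in 7 of 15 alternatives (0.0513 to 0.175), 5 of which leave out a library. MMP13 fell in knockout (-3.96 ± 0.97, adjusted p = 0.0234) and in WT (-4.14 ± 1.20, adjusted p = 0.0322), and these calls were lost in 5 of 15 alternatives (0.0527 to 0.139), 3 of which leave out a library, and in 5 of 15 alternatives (0.0898 to 0.226), 4 of which leave out a library. At E62 it had 28 and 10 counts in knockout, against 1 and 4 counts in WT. Cartilage markers summed to 322 to 523 CPM at E62 in knockout, against 1043 to 5695 CPM at E41. The part of cartilage in this fall was not tested.

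ADAMTS20, MMP15 and ADAM28 had opposite stage changes in the 2 genotypes, each past the threshold. ADAMTS20 fell in knockout with 4.53 and 4.34 CPM at E62, against 16.1 and 16.05 CPM at E41 (-1.86 ± 0.10, adjusted p = 0.000205), while in WT it rose with 67.4 and 74.04 CPM at E62, against 36.04 and 37.2 CPM at E41 (0.95 ± 0.09, adjusted p = 0.000441). MMP15 likewise fell in knockout (-1.19 ± 0.15, adjusted p = 0.00186) and rose in WT (0.64 ± 0.14, adjusted p = 0.0105). ADAM28 rose in knockout with 7.86 and 4.71 CPM at E62, against 2.54 and 2.52 CPM at E41 (1.31 ± 0.33, adjusted p = 0.0229), and fell in WT with 1.11 and 0.972 CPM at E62, against 3.09 and 1.99 CPM at E41 (-1.28 ± 0.36, adjusted p = 0.025). In knockout limbs TIMP4 rose (1.99 ± 0.30, adjusted p = 0.0054) and TIMP1 fell (-0.63 ± 0.13, adjusted p = 0.00956), while in WT neither passed (0.62 ± 0.31, adjusted p = 0.159 and -0.30 ± 0.13, adjusted p = 0.0894). Other changes called in knockout limbs alone were rises of ADAMTS6 (1.79 ± 0.21, adjusted p = 0.00173), ADAMTS14 (1.38 ± 0.21, adjusted p = 0.00374), ADAMTS19 (2.004 ± 0.41, adjusted p = 0.0162) and MMP19 (0.94 ± 0.24, adjusted p = 0.0243), and falls of ADAMTS7 (-1.10 ± 0.12, adjusted p = 0.00127), ADAMTS8 (-1.82 ± 0.45, adjusted p = 0.0294) and MMP16 (-1.43 ± 0.33, adjusted p = 0.0232). ADAM7 (1.76 ± 0.53, adjusted p = 0.041), ADAMTS12 (0.48 ± 0.13, adjusted p = 0.028) and MMP24 (1.05 ± 0.33, adjusted p = 0.0469) were also called higher at E62 in knockout alone. These calls were lost without knockout E41 replicate 1 (0.238), knockout E41 replicate 2 (0.0829), knockout E62 replicate 1 (0.0645) and knockout E62 replicate 2 (0.132) for ADAM7, without knockout E41 replicate 1 (0.18), knockout E41 replicate 2 (0.0727) and knockout E62 replicate 2 (0.134) for ADAMTS12, and in 9 of 15 alternatives (0.0554 to 0.266), 7 of which leave out a library, for MMP24. In WT alone ADAM17 (-0.33 ± 0.09, adjusted p = 0.0196) and MMP17 (-0.85 ± 0.28, adjusted p = 0.0413) were called lower at E62, with calls lost in 5 of 15 alternatives (0.055 to 0.177), 4 of which leave out a library, for ADAM17, and in 8 of 15 alternatives (0.0501 to 0.244), 5 of which leave out a library, for MMP17. ADAM15 rose in WT limbs with 41.6 and 45.00 CPM at E62, against 21.4 and 22.8 CPM at E41 (0.97 ± 0.10, adjusted p = 0.000585), and changed by 0.16 ± 0.10, adjusted p = 0.244 in knockout. Of the 15 calls in WT, 6 held in all 15 alternatives and under the block (ADAM15, ADAMTS3, ADAMTS20, MMP9, MMP11 and MMP23B), and of the 24 in knockout 9 did (ADAM11, ADAM12, ADAMTS6, ADAMTS7, ADAMTS14, ADAMTS20, MMP15, MMP23B and TIMP4). In knockout the call of ADAM28 was lost without knockout E41 replicate 1 (0.123), knockout E41 replicate 2 (0.115) and knockout E62 replicate 1 (0.108), that of TIMP1 without knockout E41 replicate 1 (0.0534), and that of ADAMTS19 without knockout E41 replicate 1 (0.112), knockout E41 replicate 2 (0.093) and knockout E62 replicate 2 (0.0634). That of MMP19 was lost without knockout E41 replicate 1 (0.0786), knockout E41 replicate 2 (0.139) and knockout E62 replicate 2 (0.107), that of MMP16 without knockout E41 replicate 1 (0.07), knockout E41 replicate 2 (0.105), knockout E62 replicate 1 (0.0838) and knockout E62 replicate 2 (0.0965), and that of ADAMTS8 in 5 of 15 alternatives (0.0576 to 0.125), 4 of which leave out a library. In WT the call of MMP15 was lost without WT E41 replicate 2 (0.0522), and that of ADAM28 in limma-voom (0.15), without WT E41 replicate 1 (0.147), without WT E62 replicate 1 (0.0849) and without WT E62 replicate 2 (0.132).

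**Figure D3:**
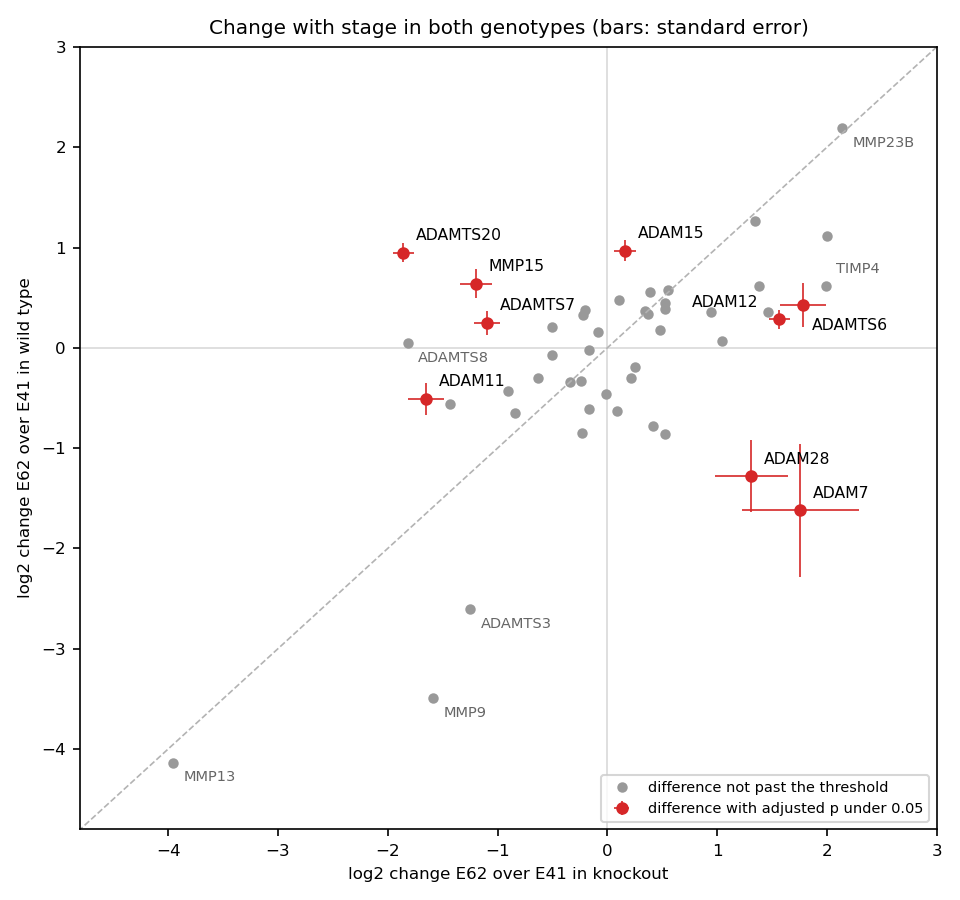
Log2 change of E62 over E41 in knockout (x axis) and in wild type (y axis) for the tested members other than MMP1, whose wild-type libraries had 0 counts at E62. Red points with standard error bars mark the 9 members whose genotype effect differed between stages; ADAMTS20 and MMP15 lie at upper left, ADAM28 and ADAM7 at lower right, and the dashed line marks equal change.

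Ratios of 2 members within a library do not depend on how libraries are scaled, and they are given as descriptions without a test. The log2 ratio of MMP14 to the enzyme it activates, MMP2, was -0.28 and -0.24 in knockout at E62, against -1.18 and -1.04 in WT. At E41 it was -0.82 and -0.84 in knockout, against -0.98 and -1.17 in WT, so knockout lay above WT at both stages and the gap was wider at E62. MMP2 over TIMP4 was 4.55 and 3.94 in knockout at E62, against 6.12 and 6.35 in WT. At E41 it was 6.28 and 6.46 in knockout, against 6.47 and 6.49 in WT, a narrow gap. ADAMTS1 over TIMP3 was -0.58 and -1.08 in knockout at E62, against -3.12 and -2.55 in WT, while ADAMTS5 over TIMP3 differed by 0.00 between the genotypes at E62. MMP14 over TIMP3 overlapped between genotypes at both stages, with differences of 0.28 at E41 and -0.15 at E62.

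**Figure D4:**
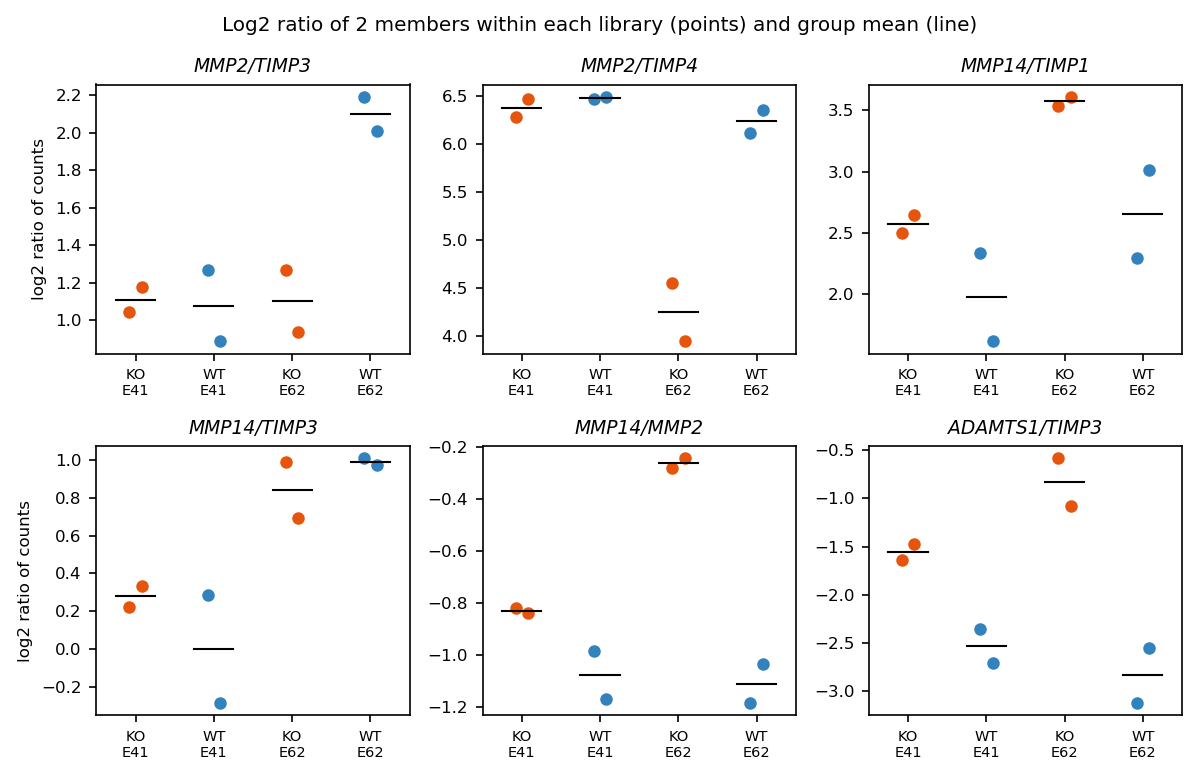
Log2 ratio of the counts of 2 members within each library (y axis; points, with the group mean as a line) by genotype and stage (x axis; knockout orange, wild type blue). MMP14 over MMP2 and ADAMTS1 over TIMP3 lie higher in knockout at both stages, MMP2 over TIMP4 lies far lower in knockout at E62, and MMP14 over TIMP3 overlaps.

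The other genes of the pathway were taken from 5 lists. Beside their counts stand the shares of all genes called, 18.5% higher and 20.8% lower at E41 and 21.0% higher and 26.2% lower at E62, and the medians of all genes, 0.09 and 0.06. Of 12 measured cofactors and inhibitors outside the TIMP family, 5 were higher (41.7%) and 1 lower (8.33%) in knockout at E41, and 5 were higher and 5 lower (41.7% each) at E62, with medians of 0.59 and -0.06. SPOCK1, a matrix proteoglycan that inhibits MMP activation, had 28.4 and 31.02 CPM in knockout libraries, against 2.29 and 2.06 CPM in WT at E62 (3.77 ± 0.12, adjusted p = 4.22e-07), and was higher at E41 too (1.82 ± 0.11, adjusted p = 1.83e-05). RECK, a membrane-anchored inhibitor of several MMPs, was higher at E41 (0.82 ± 0.11, adjusted p = 0.000945) and lower at E62 (-0.31 ± 0.11, adjusted p = 0.042), and the E62 call was lost in 10 of 15 alternatives (0.0624 to 0.951), 5 of which leave out a library.

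Of 12 measured activators and shedding cofactors, 5 were higher (41.7%) and 1 lower (8.33%) in knockout at E41, and 4 were higher (33.3%) and 1 lower (8.33%) at E62, with medians of 0.61 and 0.30. PLAUR, the receptor that gathers the plasminogen activator urokinase, rose by 1.71 ± 0.20, adjusted p = 0.000613 at E41 and 4.17 ± 0.23, adjusted p = 7.55e-06 at E62. PLAT, the tissue plasminogen activator, rose at E62 (1.80 ± 0.18, adjusted p = 0.000169). FURIN, the convertase that activates membrane-type MMPs, ADAMs and ADAMTS enzymes, rose at E41 (0.86 ± 0.12, adjusted p = 0.00147) and was not called at E62 (-0.07 ± 0.12, adjusted p = 0.678). Among 7 measured ADAMTS-like proteins and papilin, which share the non-catalytic domains of ADAMTS, 3 were higher at E41 (42.9%) and 2 at E62 (28.6%), with none lower and medians of 1.10 and 0.39. ADAMTSL5 rose at both stages (2.06 ± 0.45, adjusted p = 0.0156 and 1.90 ± 0.45, adjusted p = 0.0163). The call at E41 was lost without knockout E41 replicate 1 (0.0682), knockout E41 replicate 2 (0.0577), WT E41 replicate 1 (0.0828) and WT E41 replicate 2 (0.074), and that at E62 when fitted on the compared groups alone (0.0607) and without knockout E62 replicate 2 (0.0548).

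Of 8 proteoglycans and partners that ADAMTS enzymes cut or bind, 3 were higher in knockout at E41 (37.5%) and 1 at E62 (12.5%), with none lower and medians of 1.30 and 0.49, so the share higher at E62 lay below that of all genes. HAPLN3, a link protein, rose at both stages (1.31 ± 0.37, adjusted p = 0.0302 and 2.41 ± 0.40, adjusted p = 0.00282), and its E41 call was lost without knockout E41 replicate 1 (0.0629), knockout E41 replicate 2 (0.14), WT E41 replicate 1 (0.0562) and WT E41 replicate 2 (0.152). VCAN (versican), the substrate of ADAMTS1 and ADAMTS20 in embryonic tissue, passed at neither (-0.47 ± 0.17, adjusted p = 0.0611 and 0.03 ± 0.17, adjusted p = 0.884), although DESeq2 called it lower at E41 (0.0168). Of 12 ligands and receptors that ADAMs shed, 3 were higher (25%) and 1 lower (8.33%) at E41, and 4 were higher (33.3%) and 5 lower (41.7%) at E62, with medians of 0.06 and -0.67. HBEGF, a ligand released by ADAM17 and ADAM12, fell at both stages (-2.27 ± 0.24, adjusted p = 0.000387 and -1.53 ± 0.23, adjusted p = 0.00131), and so did the Notch ligand DLL1 at E62 (-2.23 ± 0.26, adjusted p = 0.000375). NOTCH1 rose at E41 (1.31 ± 0.18, adjusted p = 0.00116) and fell at E62 (-0.99 ± 0.17, adjusted p = 0.00265).

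Markers of other cell types were compared between the genotypes in the same fit. The counts stand against the same shares of all genes. Of 8 fibroblast markers, 5 were higher in knockout at E41 and 7 at E62, with none lower; they summed to 50207 to 54309 CPM in knockout at E41, against 23097 to 38744 CPM in WT, and to 86434 to 92652 CPM in knockout at E62, against 26503 to 46637 CPM in WT. All 7 macrophage markers were higher in knockout at E62, when MMP9 and MMP25 were called higher and ADAM8 was not called. They summed to 620 to 672 CPM in knockout, against 147 to 172 CPM in WT. From E41 to E62 in knockout, 6 of the 7 were called higher, while MMP9 was called lower. At E41, when ADAM8 was called, 2 of the 7 were higher and 1 lower, with sums of 226 to 231 CPM in knockout, against 107 to 225 CPM in WT. Of 7 osteoclast markers 4 were tested, and 3 were higher and 1 lower in knockout at E62, with sums of 203 to 204 CPM in knockout, against 119 to 121 CPM in WT. At E41 1 of the 4 was lower and none higher. OCSTAMP and DCSTAMP of this list were at 0 in both groups at E62. None of 6 neutrophil and mast cell markers was called at either stage, and they summed to 82.3 to 116 CPM in knockout at E41, against 86.5 to 102 CPM in WT, with MPO at 0 in both.

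Of 7 endothelial markers, 3 were higher at E41, when ADAM15 was called, and 5 at E62, when ADAM15 was not, with none lower. They summed to 890 to 989 CPM in knockout at E41, against 628 to 776 CPM in WT, and to 947 to 1513 CPM in knockout at E62, against 781 to 809 CPM in WT. Of 6 smooth muscle and pericyte markers, 1 was higher and 2 lower at E41, and 2 were higher and 3 lower at E62. At E62 they summed to 521 to 640 CPM in knockout, against 1555 to 1567 CPM in WT. ACTA2 made up most of that WT sum, at 1025 and 894 CPM, against 129 and 116 CPM in knockout. MYH11 went the other way, at 24.0 and 32.8 CPM in knockout, against 9.17 and 15.0 CPM in WT. So did PDGFRB, at 195 and 283 CPM in knockout, against 122 and 139 CPM in WT. Of the 5 neuron markers 4 were tested, and all 4 were higher in knockout at E62, when MMP24 was called higher and ADAM11 lower. The 5 summed to 41.3 to 63.5 CPM in knockout at E62, against 2.71 to 3.10 CPM in WT. Of 4 Schwann cell and glia markers, 2 were higher and 1 lower at E41, and 1 was higher and 1 lower at E62. At E62 they summed to 52.2 to 59.1 CPM in knockout, against 490.4 to 508 CPM in WT. ERBB3 made up most of that WT sum, at 464 and 462 CPM, against 22.5 and 14.5 CPM in knockout. None of 8 cartilage markers was called at either stage. Of the 5 tendon markers, 1 was lower at E62 and none was called at E41. Of 7 tested markers of hypertrophic cartilage and bone, 1 was higher at E41, and 2 were higher and 2 lower at E62. Of 4 epidermis markers, 1 was higher at E62 and none was called at E41. The part of these cells or of the missing muscle in the members' changes was not tested.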

How the data were processed

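Limb muscle RNA of 8 pig libraries was analysed, 2 for each genotype and stage, with groups and replicate numbers from the sample titles. A TruSeq RNA or Stranded mRNA kit was used, per the labels' protocols. Whether counting used strand is unstated, so reads of antisense partners may be mixed. Values in the deposited table are expected counts (estimated counts per gene), which are whole numbers and not normalized; kallisto, DESeq2, Sscrofa11.1 and susScr11 are named in the submitters' processing notes, without a role or version. Neither the annotation release nor any filter is stated in the labels. Symbols were found for 15527 of 22516 identifiers (69.0%). The labels call the replicates biological without naming animals, and the p-values cover the variation among these samples alone, part of which may be technical.

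Totals were 23402052 to 60539245 counts per library, so precision is lowest for members with few counts. Expected counts were rounded, filtered with filterByExpr (minimum count 10), and TMM-scaled. The edgeR 4.0.16 fit (in R 4.3.3) gave each of the 4 groups its own mean and left 4 residual degrees of freedom. Two-sided quasi-likelihood tests were adjusted by Benjamini-Hochberg over all 17020 genes tested. CPM values are counts over the TMM-scaled total. The fit was checked on simulated counts with known changes. The labels do not say that the replicate number pairs samples, so the number was no block. Deviations of replicates of 1 number correlated at -0.298 to 0.099 between groups, with -0.298 between knockout and WT at E41.

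Alternatives were DESeq2 1.42.0, limma-voom (limma 3.58.1), relative log expression factors, library size alone, no filter, 1 CPM in 4 libraries, a replicate block, the compared groups alone, and leaving out each library; for the list genes and for the count called at both stages they were chosen after seeing the data. Every tested member is given, in full for those fixed by name and for the largest called changes. The members, roles and lists were chosen with earlier results of these data known. RefSeq's Sscrofa11.1 table, used for positions in the closing section, holds 58 of the 62 members; it is not known to be the counting annotation. No sequence was used. Values of 1 gene of a pathway list are not reported here.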

Additional observations from a re-analysis of the deposited data

Results flagged for a closer look

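The effect of the knockout differed between E62 and E41, by the test of that difference in edgeR's fit, for 9 members, and each is given as the log2 effect at E62 minus that at E41. ADAM7 differed by 3.38, with 137 and 152 counts in knockout at E62, against 8 and 3 counts in WT. ADAM28 differed by 2.59, as its level was higher at E62 than at E41 in knockout and lower in WT. ADAMTS6 differed by 1.36, with a rise with stage called in knockout alone. ADAM12 differed by 1.28, and was called lower in knockout at E41 alone. ADAMTS20 differed by -2.81, the largest fall of the 9, and was called lower in knockout at both stages. MMP15 differed by -1.83 and was called lower at E62 alone. ADAMTS7 differed by -1.34, since it was called higher in knockout at E41 and lower at E62. ADAM11 differed by -1.14 and was called lower at E62 alone. ADAM15 differed by -0.81 and was called higher in knockout at E41 alone. The differences of ADAM7, ADAM11 and ADAMTS6 were lost without single libraries, as given above, and the other 6 held in all 15 alternatives.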

How the results depend on the processing

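Outside the left-out libraries, each count of called members stayed within 1.5 times its value (21 to 34 at E41, 31 to 37 at E62, 8 to 13 for the difference between stages, 10 to 21 with stage in WT and 19 to 25 in knockout). Leaving out 1 library gave 11 to 24 members at E41, 26 to 34 at E62, 8 to 12 for the difference between stages, 7 to 20 with stage in WT and 11 to 25 in knockout; the lone library of a group was then assumed to vary like the other groups. With the replicate block the counts were 21, 33, 9, 13 and 19 in the same order, and the labels do not say that the number pairs samples. Under the block 4 member calls were lost at E41 (TIMP1, adjusted p = 0.0588, ADAMTS8, 0.0683, ADAMTS13, 0.0598, and ADAMTS14, 0.0562), 2 at E62, 3 with stage in WT, 5 with stage in knockout and none of the differences between stages. All alternatives that gave a value kept 10 of 23 calls at E41, 24 of 35 at E62 and 6 of 9 differences between stages, and no called member changed sign. The sign reversals were all among values short of the threshold, and their cause was not tested. Under library size alone, the E41 changes became 0.13 for ADAM17, 0.18 for ADAM23, 0.29 for ADAM28, 0.17 for ADAMTS9 and 0.19 for ADAMTS15, and the E62 changes 0.24 for ADAM9, 0.27 for ADAM15, 0.24 for ADAM17 and 0.14 for MMP16. ADAM28 at E41 became 0.032 in limma-voom, 0.0064 with no filter, 0.039 with 1 CPM in 4 libraries and 0.033 with the block. ADAM15 at E62 became 0.0007 in DESeq2, 0.0009 with relative log expression factors and 0.024 with 1 CPM in 4 libraries, and in the compared groups alone MMP9 became -0.0007 and MMP15 -0.0056 at E41. Without single libraries the E41 change ranged from -0.17 to 0.80 for ADAM7, -0.042 to 0.504 for ADAM9, -0.18 to 0.011 for ADAM23, -0.27 to 0.39 for ADAM28, -0.39 to 0.28 for ADAMTS9, -0.23 to 0.092 for ADAMTS15, -0.40 to 2.26 for MMP1, -0.38 to 0.70 for MMP9, -0.22 to 2.56 for MMP13 and -0.030 to 0.17 for MMP15. At E62 it ranged from -0.16 to 0.012 for ADAM9, -0.015 to 0.21 for ADAM10, -0.14 to 0.047 for ADAM15, -0.97 to 0.045 for ADAM23, -0.095 to 1.23 for ADAMTS19, -0.48 to 0.23 for MMP16, -0.28 to 0.56 for MMP23B and -0.08 to 0.25 for TIMP1. Among the list genes, PLAT at E41 became 0.11 and FURIN at E62 0.24 under library size alone, with DLL1 at 0.024 at E41, and without single libraries the change ranged from -0.41 to 0.15 for PLAT at E41, -0.19 to 0.043 for FURIN at E62 and -0.17 to 0.26 for VCAN at E62. Depth limits the members with few counts, such as ADAM3A, ADAM7, ADAMTS13, MMP1 and MMP25.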

Other observations

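Several members lie beside each other on the RefSeq Sscrofa11.1 map. ADAMTS1 (chromosome 13, 190277175 to 190285957) and ADAMTS5 (190353019 to 190413110) are 67.1 kb apart, and both were called higher in knockout at both stages. ADAM28 (chromosome 14, 8375169 to 8438622) and ADAM7 (8484391 to 8554879) are 45.8 kb apart, and both were called higher in knockout at E62 and not at E41, with genotype effects that differed between the stages. ADAMTS8 (chromosome 9, 57090313 to 57113077) and ADAMTS15 (57127527 to 57152550) are 14.4 kb apart, and both were called lower in knockout at E62. Whether these pairs share reads or control was not tested.

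A run of 8 MMP genes, in the order MMP7, MMP20, MMP27, MMP8, MMP1, MMP3, MMP12 and MMP13, spans chromosome 9 from 33214590 to 33616700, and only MMP1 and MMP13 of it passed the filter. MMP3 (stromelysin-1), which cuts proteoglycans and activates other MMPs, had 8 and 39 counts in knockout at E41, against 0 and 1 counts in WT. The library with 39 counts is knockout E41 replicate 2, which also held the highest MMP13 and cartilage marker levels. MMP7 (matrilysin), an enzyme of epithelia, had 14 and 4 counts in knockout at E62, against 0 and 0 in WT, and MMP27 had 5 and 10 counts, against 0 and 0 in WT. Knockout E62 replicate 1, with 14 MMP7 counts, is the library with the higher epidermis markers; the part of epidermis was not tested. MMP8, MMP12 and MMP20 stayed at or below 10 counts in every library. Of the untested ADAMs, ADAM2 reached 6 counts, ADAM21 3, ADAM18 2, and ADAM20 and ADAM32 1 count in a library, while ADAM30 had 0 counts in all 8.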
